A study of Mus musculus with 9 samples.

Results

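The nuclear genes of respiratory complex I were described in mouse liver RNA, as the set of all genes whose symbol begins with Nduf. Symbols were matched to the Ensembl identifiers of the deposited table. Of 32285 identifiers, 47 carried such a symbol, and 45 were kept. One was left out as a name ending in -ps (Ndufb1-ps, mean 88.2) and one for a mean under 10 normalized counts over the 9 libraries (Ndufa4l2, mean 6.72). A normalized count is a read count divided by a size factor of its library. The same mean of at least 10 left 12100 genes of the whole table for testing.

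The study sequenced livers of Tet-OFF mice, in which tTA, a transactivator switched off by tetracyclines, drives a Venus and mCherry reporter. The mice carried a piggyBac CAG-CreERT2 transgene, a Rosa26 loxP-stop-loxP tTA allele and a Rosa26 tetO-Venus-ires-mCherry allele. They were male and given as 4 weeks old, which the study states as the age at which mice received the drugs. All 3 groups received tamoxifen, controls included, so Cre and tTA were active in each, and CAG drives Cre in most cell types. Beside tamoxifen, Dox mice drank doxycycline (as the hyclate) and Tc mice tetracycline (as the hydrochloride) for 7 days, at 2 mg/mL in water that held 10 mg/mL sucrose, and Control mice neither. Both drugs also silence the reporter, which stays on in controls, so drug and reporter cannot be told apart. Whether controls drank sucrose is not stated in the sources used here. Each group had 3 libraries of total RNA, with 7426136 to 12183041 reads on genes.

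Complex I, NADH:ubiquinone oxidoreductase, takes electrons from NADH, passes them along a chain of iron-sulfur clusters to ubiquinone and pumps protons across the inner mitochondrial membrane. Its core subunits carry the catalysis and are conserved from bacteria. Some core subunits are made from the mitochondrial genome, and the others are imported. Accessory subunits surround the core and are needed for its stability, while assembly factors join parts of the complex during its construction and do not remain in it. The N module oxidises NADH, the Q module reduces ubiquinone, and the proximal and distal membrane arms pump protons. Liver relies on the complex to reoxidise the NADH made by fatty acid and amino acid breakdown. Tetracyclines bind the bacterial ribosome and are known to slow translation in mitochondria, where the remaining core subunits are made.

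The 45 members were 7 core subunits, 29 accessory subunits, 8 assembly factors (Ndufaf1 to Ndufaf8) and Ndufa4, which is now assigned to complex IV. By place in the complex, 10 of the 36 subunits belong to the N module, 6 to the Q module, 9 to the proximal arm and 10 to the distal arm, and Ndufab1, the acyl carrier protein, sits in more than one place. In controls, the lowest core subunit, Ndufs7, lay at 292 normalized counts per kb of principal transcript, and the median of the core was 432. All 8 assembly factors lay below every core subunit, between 22.1 (Ndufaf5) and 133 (Ndufaf1) per kb. Accessory subunits covered the widest range, from 27.3 (Ndufs5) to 1570 (Ndufb9) per kb. For 30 members, no stretch of 86 bases (the read length) of the transcript was found in another gene's transcripts. Over 10% of such stretches were shared for 9 members, among them Ndufb4 (34.4%, with Gm16056 and Ndufb4c), Ndufs3 (23.9%, with Gm12251), Ndufs5 (21.7%, with BC002163) and Ndufb5 (13.2%, with Mrpl47), and values of these genes are uncertain to that extent.

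Promoter sequence is shown for 3 members that the results turn on: Ndufaf4, the member called in Dox, and Ndufaf1 and Ndufs8, an assembly factor and a core subunit that differed over 2-fold between Dox livers. The 150 bases before each RefSeq start site are given 5′ to 3′ on the gene's strand (GRCm38.p6). Capitals mark matches to the letters searched on both strands: GCGCATGCG for NRF1, CCGGAAG for ETS factors, AAGATGGCG for YY1, CAAGGTCA for estrogen-related receptors, and CCAAT.
Ndufaf4 (chr4:24897933-24898082, plus strand): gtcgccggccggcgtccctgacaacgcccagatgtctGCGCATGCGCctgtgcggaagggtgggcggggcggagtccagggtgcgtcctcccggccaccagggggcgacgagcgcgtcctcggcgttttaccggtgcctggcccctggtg
Ndufaf1 (chr2:119662835-119662984, minus strand): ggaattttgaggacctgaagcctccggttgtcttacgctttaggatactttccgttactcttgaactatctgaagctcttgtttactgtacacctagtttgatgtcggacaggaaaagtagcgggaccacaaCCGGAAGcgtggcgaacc
Ndufs8 (chr19:3912775-3912924, minus strand): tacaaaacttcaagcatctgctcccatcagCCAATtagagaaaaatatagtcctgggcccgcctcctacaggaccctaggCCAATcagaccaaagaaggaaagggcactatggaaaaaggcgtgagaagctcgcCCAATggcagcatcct
In Ndufaf4, the NRF1 letters occur on both strands of 1 overlapping palindrome, 113 bases before the start site. Over the window from 250 bases before to 50 after the start site, 40 of the 45 members had a promoter in the table. The NRF1 letters were in 4 of the 40 (Ndufa8, Ndufa11, Ndufaf4 and Ndufaf5), against 1.94% of 26994 genes. The YY1 letters were in 6 members (Ndufa9, Ndufaf8, Ndufc1, Ndufs4, Ndufs6 and Ndufs7), against 1.63% of genes. The ETS letters were in 6 members, against 9.92% of genes, CCAAT in 14, against 41%, and the letters of estrogen-related receptors in 1 (Ndufs5), against 1.76%. A match is a description of these letters and not a binding site.

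Before the results, 2 features of the libraries bear on every spread given here. In all 3 groups, library 3 resembled a mixture of libraries 1 and 2, although the study calls its samples independent. Among genes that differed over 2-fold between libraries 1 and 2 (mean of at least 50), library 3 lay between them for 201 of 207 in controls, 3010 of 3025 in Dox and 483 of 488 in Tc. Among the members, this held for 39 of 45 in Dox, 25 in Tc and 19 in controls. Values are from all 9 libraries unless stated, the calls of the members and the medians by role are also given without the libraries 3, and adjusted p-values that count library 3 as a liver of its own may be too small. The first and second Dox livers also stood apart: 35.2% of the 12100 genes differed over 2-fold between them, against 4.84% between the first and second controls and 8.45% between the first and second Tc livers.

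Markers of hepatocytes were high in every library, as the liver label says. Their summed level was 1201533 to 1669166 normalized counts in controls, 544832 to 883438 in Dox and 881196 to 1314415 in Tc, over 8 of 8 listed genes, with most of it from Alb (albumin). Without Alb, the other markers summed to 245373 to 260814 in controls, 270021 to 289285 in Dox and 221204 to 304467 in Tc. The sum of 6 Kupffer cell (liver macrophage) markers was 6324 to 10371 in controls, 1762 to 4486 in Dox and 2997 to 5979 in Tc. The sum of 6 endothelial markers was 6080 to 6302 in controls, 3238 to 4655 in Dox and 4826 to 5447 in Tc. Sums of 6 stellate markers were 3007 to 3229, 2375.5 to 3482 and 2909 to 3368 in the same order. Those of 6 cholangiocyte markers were 199.9 to 243.5, 148.4 to 375.9 and 255.8 to 335.4. Striated muscle, a tissue rich in complex I, gave sums of 4 markers of 77.6 to 117 in controls and at most 1.7 in Tc, and of 202, 3.5 and 139 in Dox 1, 2 and 3, so that these genes were also higher in Dox 1 than in Dox 2. Erythroid marker sums were 1229 to 4692 in controls, 648 to 2271 in Dox and 1090 to 1928 in Tc, and neutrophil marker sums were 41.3 to 387, 2.1 to 114 and 11.7 to 103. In Dox, limma called the erythroid genes Slc4a1 and Hba-a1 and the neutrophil gene Mpo lower (adjusted p = 0.00942, 0.0444 and 0.0159). Alas2, also erythroid, had 119, 335 and 222.5 in controls, 1368, 46.0 and 828 in Dox, and 1212, 115 and 775 in Tc. It was above all controls in libraries 1 and 3 of both drugs and made up much of those erythroid sums. Its log2 fold change in Dox was 0.86 (limma adjusted p = 0.683). Also called lower in Dox were Adgre1 and Clec4f (Kupffer), Clec4g, Kdr and Stab2 (endothelial) and Colec11 (stellate), while Sox9 (cholangiocyte) was called higher. Of the markers tested, 6 of 6 Kupffer, 6 of 6 endothelial, 5 of 6 stellate and 1 of 3 cholangiocyte genes had log2 fold changes below 0. The brown fat markers Ucp1 and Cidea had means below 1. The part of these shifts in the results below was not tested, and in bulk liver, fewer cells of a type and less RNA per cell cannot be told apart.

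The first comparison asked how 7 days of doxycycline left these genes in the liver. A single member, the assembly factor Ndufaf4, passed the test, and it rose. NDUFAF4 acts early in assembly, with NDUFAF3, on the part that holds the Q module. Ndufaf4 (ENSMUSG00000028261, chr4:24898083-24905001, GRCm38) had 177, 186 and 215 normalized counts in the controls. It had 293, 452 and 358 in the Dox livers. All 3 Dox livers lay above all 3 controls, and the second Dox liver was the highest of the 9. The log2 fold change was 0.91 ± 0.19 (SE, n = 3 and 3, limma adjusted p = 0.0249), on the scale of log2(normalized count + 1). DESeq2 (adjusted p = 0.000561) and edgeR (adjusted p = 0.0233) on the recovered reads also called it. Without the libraries 3, the log2 fold change was 1.0 ± 0.30 and neither test passed (limma adjusted p = 0.559, DESeq2 adjusted p = 0.226). Limma then called 0 of the 12100 genes, so that its result there is not particular to Ndufaf4, and DESeq2 called 1.2%. In the fit with a replicate block, the limma adjusted p was 0.0514, and 0 members were called, against 6.41% of all genes.

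Of the 12100 genes, 3.16% were called higher and 5.26% lower in Dox by limma at an adjusted p under 0.05. Among the members, 1 of 45 was called higher and 0 were called lower. At an unadjusted limma p under 0.05 there were 6 members, all higher (Ndufaf4, Ndufa6, Ndufs7, Ndufb5, Ndufv1 and Ndufb6), where 13.6% of all genes were higher and 15.4% lower. The members' share on the higher side was close to that of the table, and 0 were on the lower side. DESeq2 called 3 members higher (Ndufaf4, Ndufa6 and Ndufs7) and 0 lower, where it called 8.77% and 9.18% of genes, and edgeR called 1, where it called 9.07%. Without the libraries 3, 1 member had an unadjusted limma p under 0.05, against 8.6% of genes, and DESeq2 called 0 members, against 1.2%.

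**Figure D1:**
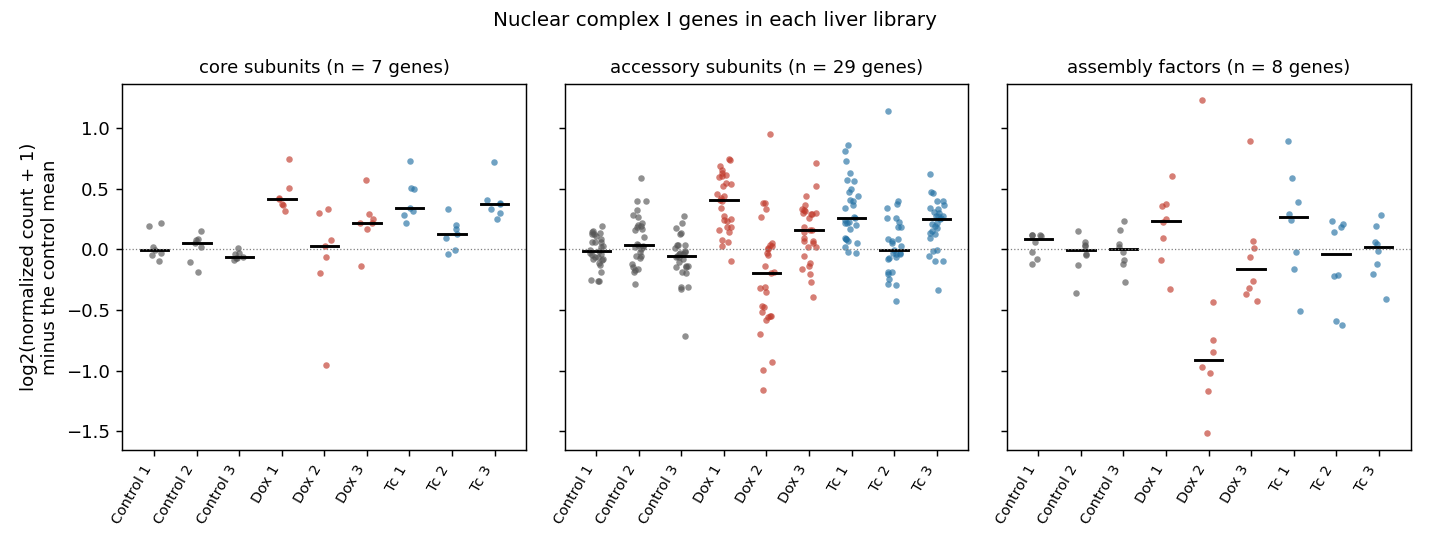
Each point is a gene, plotted as log2(normalized count + 1) minus its mean over the 3 control libraries, for each of the 9 libraries (x axis), in panels for core subunits, accessory subunits and assembly factors; black bars are medians. In Dox 2 the median of the assembly factors was -0.91 while that of the core subunits was 0.03, and in Dox 1 the medians were 0.24 and 0.42.

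What set the Dox group apart was disagreement among its own livers. Relative to the control mean, the median member lay at 0.37 on the log2 scale in Dox 1, at -0.28 in Dox 2 and at 0.16 in Dox 3. Above the highest control were 33 of the 45 members in Dox 1 and 8 in Dox 2, and below the lowest control were 1 in Dox 1 and 26 in Dox 2. Over all genes, 39.3% lay above and 36.4% below the control range in Dox 1, and 41.5% and 43.4% in Dox 2. The members thus sat mostly above the control range in one Dox liver and mostly below it in another, whereas the table as a whole was balanced in both. Of the 45, 43 were higher in Dox 1 than in Dox 2, with a median difference of 0.67 on the log2 scale, where 49.1% of all genes were higher in Dox 1. The exceptions were Ndufaf4 and Ndufs5. In 11 members the difference was over 2-fold, against 35.2% of all genes: Ndufa1, Ndufa3, Ndufa12, Ndufa13, Ndufb2, Ndufv3, Ndufs8, Ndufaf1, Ndufaf3, Ndufaf5 and Ndufaf6. Hepatocyte markers split in Dox 2: Alb, Apoa1, Cyp2e1, Ttr and Serpina1c were the lowest of the 9 libraries there and Cps1, Hnf4a and Pck1 the highest, and the part of this in the members' values was not tested.

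Between Dox 1 and Dox 2 the median difference was 0.48 for core subunits, 0.62 for accessory subunits and 0.92 for assembly factors. The median log2 fold change of the core subunits in Dox was 0.22 (0.21 without the libraries 3), against a median of 0.00 over all genes. Above 0 were 6 of 7, and limma called 0 of 7, where it called 3.16% of genes higher and 5.26% lower. All 7 lay above the control range in Dox 1, and 2 lay above it and 2 below it in Dox 2. In Tc the median was 0.29 (0.25 without the libraries 3), with 7 of 7 above 0 and 0 called, where 0.182% of genes were. In Tc 1 and Tc 3, 6 and 7 of the 7 lay above the control range, and in Tc 2, 3 did.

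Ndufs7, whose protein carries the iron-sulfur cluster next to ubiquinone, had the highest fold change of the core in both drugs. It had 282, 290 and 289 normalized counts in controls, 483, 354 and 428 in Dox, and 476, 362 and 473 in Tc. Every drug-treated liver was above every control, and the second liver was the lowest of both drug groups. The log2 fold change was 0.54 ± 0.16 in Dox (limma adjusted p = 0.0656, DESeq2 adjusted p = 0.0213) and 0.60 ± 0.16 in Tc (limma adjusted p = 0.218, DESeq2 adjusted p = 0.0402). Neither was called by limma, and without the libraries 3 the DESeq2 adjusted p-values were 0.613 and 1.0. With Dox replicate 2 left out, limma called Ndufs7 in Dox and in Tc, where 18.3% and 3.98% of all genes were then called.

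Ndufv1, which holds the flavin that accepts electrons from NADH, had 1407, 1437 and 1316 in controls and 1790, 1744 and 1702 in Dox. The Dox livers lay close together above the controls, with a log2 fold change of 0.33 ± 0.14 (limma adjusted p = 0.155). In Tc it had 1727, 1351 and 1837, and the second liver lay within the control range (log2 fold change 0.23 ± 0.14, limma adjusted p = 0.583). Its N-module partners gave smaller values in Dox: Ndufv2 0.19 ± 0.15 and Ndufs1 0.16 ± 0.18 (limma adjusted p = 0.426 and 0.584). Ndufs3, a structural subunit of the Q module, gave 0.24 ± 0.17 in Dox and 0.35 ± 0.17 in Tc (limma adjusted p = 0.371 and 0.46).

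Ndufs8, an iron-sulfur subunit of the Q module, split the Dox livers. It had 361, 396 and 362 normalized counts in controls, 463, 192 and 339 in Dox, and 474, 428 and 470 in Tc. The first Dox liver was above the controls and the other two below, 2.41 times apart between Dox 1 and Dox 2, while all 3 Tc livers were above. The log2 fold change was -0.26 ± 0.27 in Dox and 0.29 ± 0.27 in Tc (limma adjusted p = 0.556 and 0.751).

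**Figure D2:**
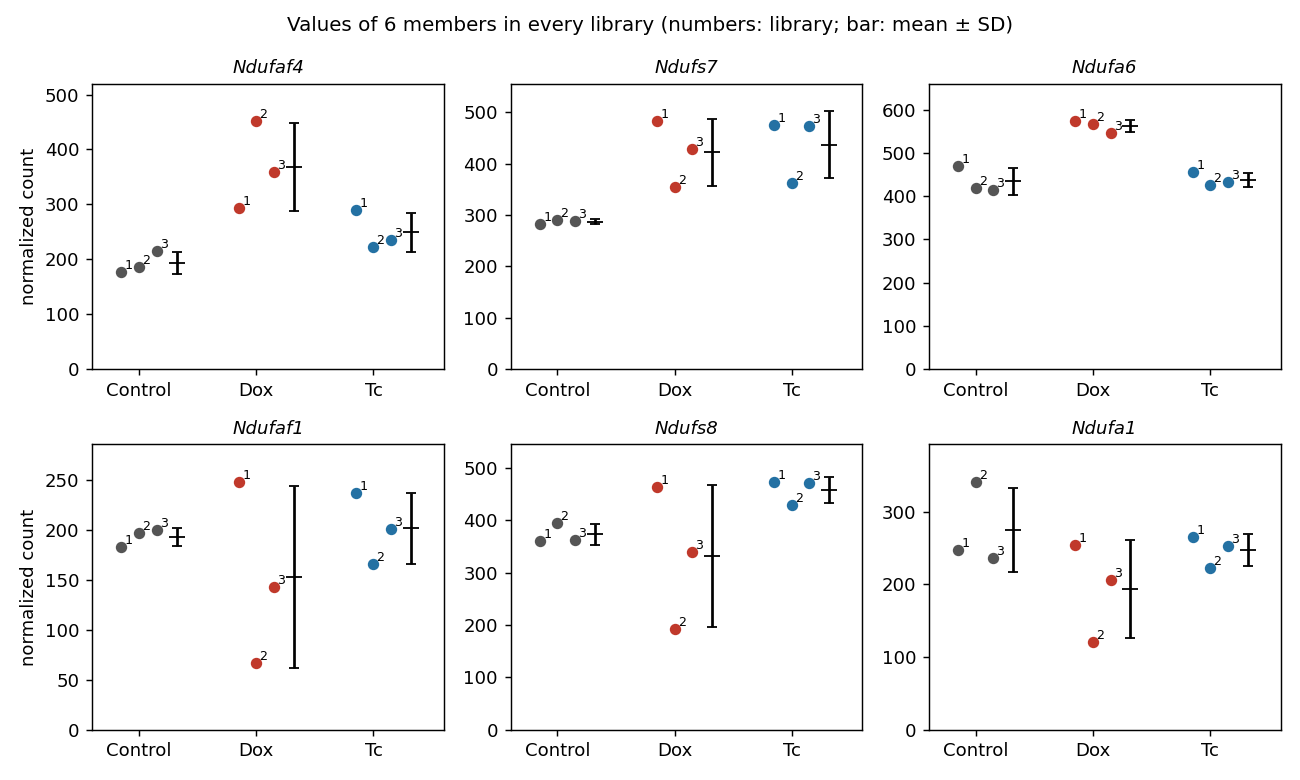
Normalized counts (y axis, from 0) of Ndufaf4, Ndufs7, Ndufa6, Ndufaf1, Ndufs8 and Ndufa1 in every library, by group (x axis), with the library number beside each point and the mean ± SD (n = 3) beside each group. Ndufaf4 and Ndufa6 were above the controls in all 3 Dox livers, while Ndufaf1 and Ndufs8 ranged from 66.7 to 249 and from 192 to 463 within the Dox group.

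Assembly factors other than Ndufaf4 had log2 fold changes below 0 in Dox, 7 of the 8, none of them called. Their median over all 8 was -0.40 in Dox (-0.39 without the libraries 3, and -0.23 with 3 of 8 above 0 when libraries were scaled to the same total) and 0.05 in Tc (0.03 without the libraries 3). In Dox 2, 7 of the 8 lay below the lowest control, and Ndufaf4 above the highest. In Dox 1, 5 lay above the highest control and 1, Ndufaf2, below the lowest. By library, their median was 0.24 in Dox 1, -0.91 in Dox 2 and -0.16 in Dox 3, so its sign differed between the first Dox liver and the other two.

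Ndufaf1 belongs to the group of factors that build the membrane arm, with Ecsit, Acad9 and Tmem126b. It had 183, 197 and 200 normalized counts in controls, 249, 66.7 and 143 in Dox, and 237, 166 and 201 in Tc. The first Dox liver was the highest of the 9 and the second the lowest, 3.72 times apart. The log2 fold change in Dox was -0.53 ± 0.40 (limma adjusted p = 0.406). Without Dox replicate 1 it was -0.97 and limma called it, as it then did 23.6% of all genes.

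Ndufaf3, the partner of Ndufaf4, had 82.6, 69.9 and 77.6 in controls, 89.5, 33.4 and 58.9 in Dox, and 68.4, 87.2 and 75.8 in Tc. Its log2 fold change in Dox was -0.44 ± 0.32, opposite in sign to that of Ndufaf4 and not called (limma adjusted p = 0.381). In Dox 2 the pair stood at 33.4 and 452, the lowest and the highest value of each gene in the 9 livers. Ndufaf7, a methyltransferase, had 115, 116 and 102 in controls, 104, 61 and 88.9 in Dox, and 109, 122 and 115 in Tc. Of the Dox livers, the first alone reached the control range (log2 fold change -0.42 ± 0.20, limma adjusted p = 0.204).

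Ndufaf6, an early factor for the membrane part, had 154, 110 and 167 in controls, 151, 71.3 and 118 in Dox, and 98.6, 93.5 and 106 in Tc. All 3 Tc livers lay below all 3 controls, and the log2 fold change in Tc was -0.50 ± 0.27 (limma adjusted p = 0.534). Ndufaf2, a relative of the accessory subunit Ndufa12 that acts late in assembly, had 51.9, 53.1 and 39.4 in controls and 37.9, 23.0 and 50.1 in Dox. Ndufaf5, which hydroxylates Ndufs7, was low throughout, at 25.4 to 26.5 in controls, 15 to 33.7 in Dox and 23.6 to 48.8 in Tc. Its partner Ndufaf8 had 64.8 to 75.2 in controls, 50.6 to 82.1 in Dox and 59.4 to 90.8 in Tc. For these last 3 genes the groups overlapped in every comparison and the limma adjusted p was at least 0.416.

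**Figure D3:**
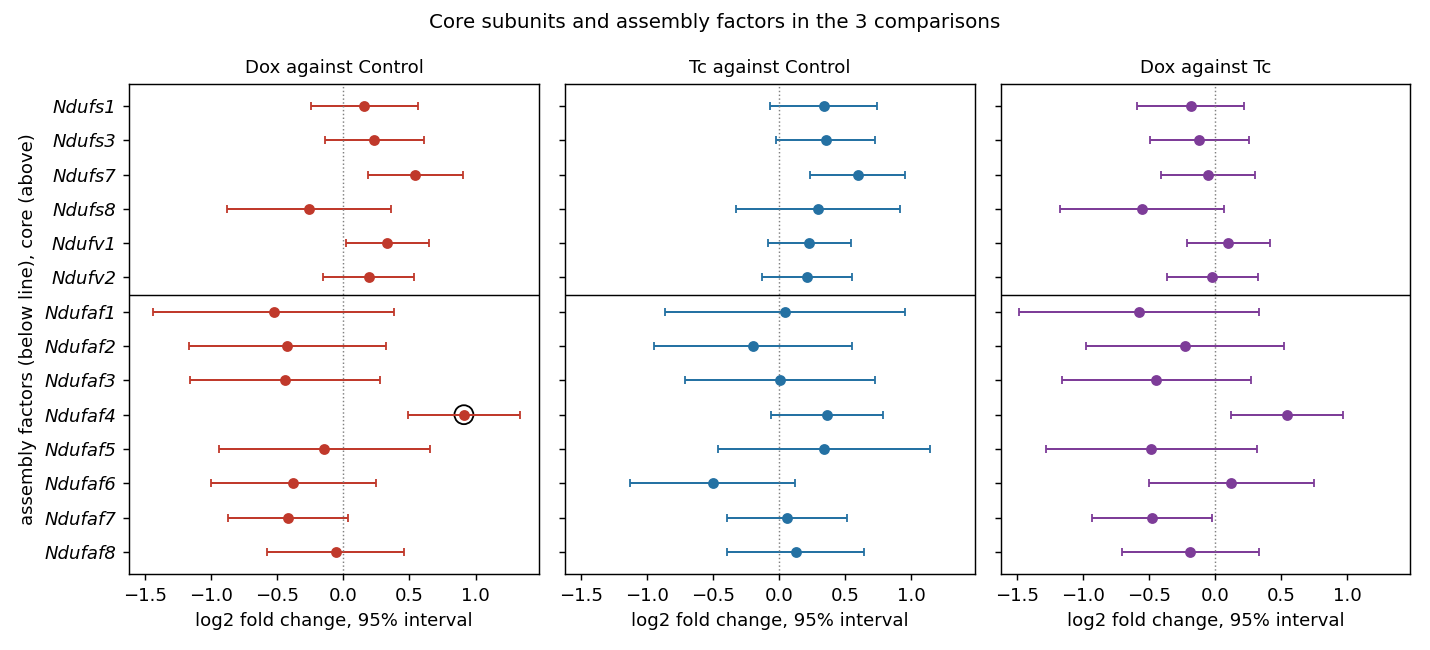
Log2 fold change with its 95% interval (limma, x axis) of 6 core subunits (above the line) and the 8 assembly factors (below it), in Dox against Control, Tc against Control and Dox against Tc. The circled point, Ndufaf4 in Dox, is the one that passed the test, and the interval of Ndufaf1 in Dox runs from -1.44 to 0.38.

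Accessory subunits gave a median log2 fold change of 0.13 in Dox and 0.17 in Tc (0.08 and 0.11 without the libraries 3), and 0 of 29 were called in either (0 by edgeR, 1 by DESeq2 in Dox and 0 in Tc). Of all genes, limma called 3.16% higher and 5.26% lower in Dox, and 0.182% in Tc. At an unadjusted p under 0.05 there were 3 accessory subunits in Dox, all higher, where 13.6% of genes were higher and 15.4% lower. In Tc there was 1, where 11.7% of genes passed. Between the arms of the complex the medians in Dox were 0.17 for the N module, 0.23 for the Q module, 0.13 for the proximal arm and 0.11 for the distal arm. In Tc they were 0.21, 0.32, 0.23 and 0.17. The Q module had the highest median and the distal arm the lowest in both. With the libraries 3 left out, the medians in Dox were 0.07 for the N module, 0.22 for the Q module, 0.10 for the proximal arm and 0.03 for the distal arm. The Tc medians were then 0.105, 0.27, 0.255 and 0.09. Of the 6 Q-module genes, 6 were above 0 in Tc and 4 in Dox, with or without the libraries 3. Over all 9 libraries, 10 of 10 genes of the distal arm, 8 of 9 of the proximal arm and 8 of 10 of the N module were above 0 in Tc. In Dox these counts were 5, 7 and 7.

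Ndufa6, an accessory subunit of the N module that binds the acyl carrier protein, was higher in every Dox liver than in every Tc liver. It had 470, 419 and 416 normalized counts in controls, 575, 567 and 547 in Dox, and 457, 425 and 434 in Tc. The Dox livers lay close together and above all controls and Tc livers, which overlapped each other. The log2 fold change was 0.37 ± 0.11 in Dox (limma adjusted p = 0.0615, DESeq2 adjusted p = 0.0119) and 0.01 ± 0.11 in Tc (limma adjusted p = 0.979). Without the libraries 3 it was 0.36 in Dox, with a DESeq2 adjusted p of 0.681.

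Ndufb5, of the distal arm, had 469, 348 and 464 in controls, 683, 535 and 574 in Dox, and 655, 506 and 585 in Tc. All drug-treated livers were above all controls, with log2 fold changes of 0.49 ± 0.17 and 0.45 ± 0.17 (limma adjusted p = 0.104 and 0.375). Ndufs5, an accessory subunit of the proximal arm with few reads, had the highest fold change in Tc, 0.81 ± 0.36 (limma adjusted p = 0.433). Its values were 19.1, 26.5 and 10.2 in controls, 24.2, 34.5 and 29.0 in Dox, and 31.2, 39.6 and 24.4 in Tc, and the groups overlapped. Ndufb4, of the distal arm, had 56.1, 54.0 and 73.7 in controls and 102, 79.4 and 74.8 in Dox, above the controls, and a log2 fold change of 0.47 ± 0.26 (limma adjusted p = 0.257). Ndufa5 of the Q module and Ndufc1 of the proximal arm were among the 5 highest in Tc, at 0.42 ± 0.27 and 0.40 ± 0.21 (limma adjusted p = 0.595 and 0.511).

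At the low end stood Ndufa1, a small X-linked subunit of the membrane arm (chrX:37187588-37191163). It had 248, 342 and 237 normalized counts in controls, 254, 121 and 207 in Dox, and 266, 223 and 254 in Tc. Its log2 fold change in Dox, -0.55 ± 0.27, was the lowest of the 45 but was not called (limma adjusted p = 0.211), and Dox 1 lay within the control range. Ndufv3, an accessory part of the NADH-oxidising module, had 560, 488 and 490 in controls and 610, 257 and 423 in Dox, 2.38 times apart between Dox 1 and Dox 2. Its log2 fold change was -0.34 ± 0.28 in Dox and -0.11 ± 0.28 in Tc, neither of them called (limma adjusted p = 0.442 and 0.926). Ndufa4, the complex IV subunit, had 828, 1060 and 968 in controls, 1469, 782 and 1174 in Dox, and 1199, 941 and 996 in Tc, with Dox 1 the highest and Dox 2 the lowest of the 9. Its log2 fold change was 0.22 ± 0.23 in Dox and 0.14 ± 0.23 in Tc (limma adjusted p = 0.544 and 0.876).

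**Figure D4:**
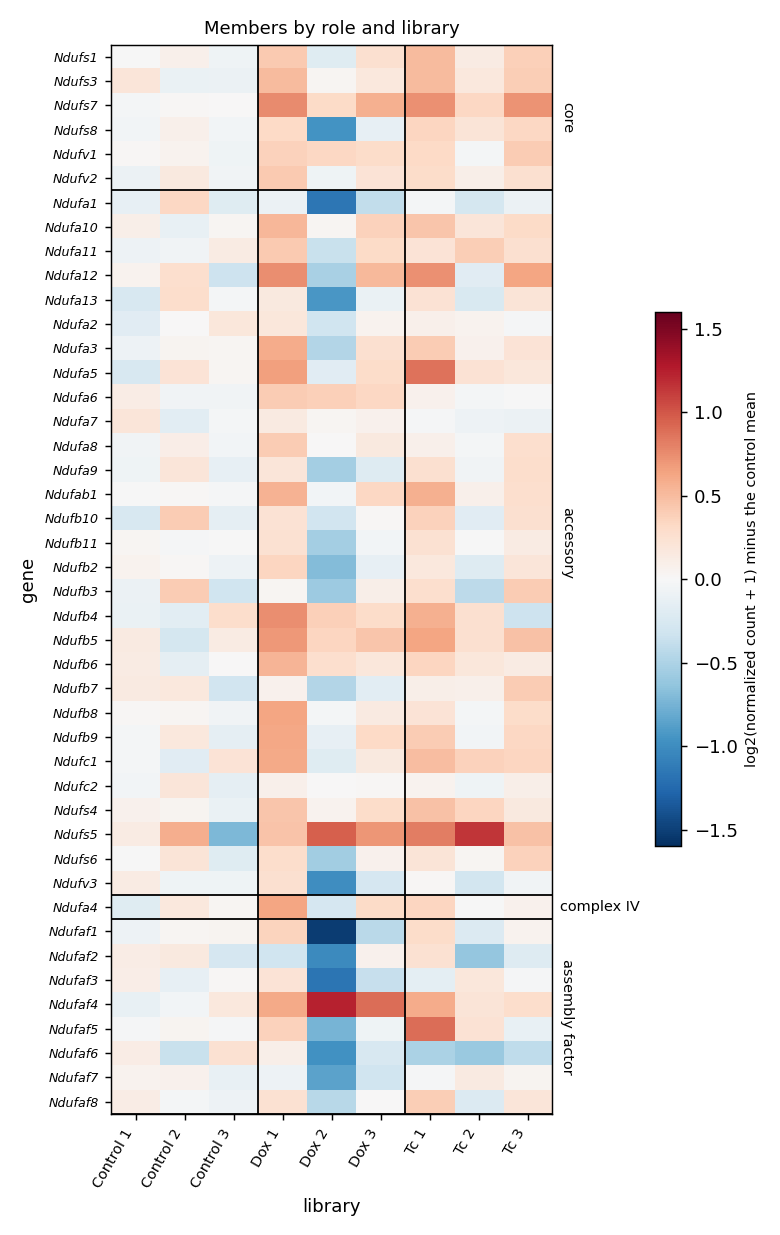
Members by name (rows, by role) in the 9 libraries (columns), coloured by log2(normalized count + 1) minus the control mean, red above and blue below. Dox 1 is mostly red and Dox 2 mostly blue among accessory subunits and assembly factors, with Ndufaf4 red in all 3 Dox libraries.

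The second comparison asked the same of tetracycline. Of the 45 members, 40 lay above 0 in Tc and 26 in Dox, and none was called in Tc. These counts were 34 and 25 without the libraries 3, and 40 and 34 with the same total per library. Their median log2 fold change was 0.17 (0.11 without the libraries 3), against 0.00 over all genes, and in Dox it was 0.13 (0.08 without the libraries 3). By limma, 0 of 45 were called, where 0.182% of genes were. At an unadjusted p under 0.05 there were 2 (Ndufs7 and Ndufb5), where 11.7% of genes were. DESeq2 called 1 (Ndufs7), against 2.86% of genes, and edgeR 0, against 0.198%. Without the libraries 3, 0 members passed an unadjusted limma p under 0.05 or the DESeq2 test, against 1.98% and 0.0744% of genes. In the fit of all 9 libraries, the spread within Dox also enters the Tc p-values. Limma on Control and Tc alone called Ndufs7, where it called 382 genes higher and 345 lower of 12100. At an unadjusted p under 0.05, 10 members were then higher and 1 lower, where 1546 and 1555 genes were.

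The Tc livers also differed among themselves. The median member lay 0.30, 0.03 and 0.25 above the control mean in Tc 1, Tc 2 and Tc 3. Of the 45, 41 were higher in Tc 1 than in Tc 2, where 52.3% of all genes were, and 0 differed over 2-fold. In controls, 16 of 45 were higher in the first library than in the second. Same-numbered Dox and Tc livers deviated together from their group means over all genes (r = 0.287, 0.321 and 0.182 across genes, for which genes are not independent).

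In 7 members all 3 Dox livers lay above all 3 controls (Ndufa6, Ndufaf4, Ndufb4, Ndufb5, Ndufb6, Ndufs7 and Ndufv1), and in 0 below, where 16.1% of all genes lay above and 17.1% below. In Tc the counts were 11 above and 1 below (Ndufaf6), where 15.8% and 14.9% of genes did so. The 11 included the core subunits Ndufs1, Ndufs7 and Ndufs8 and 4 genes of the proximal arm, Ndufa3, Ndufa10, Ndufa11 and Ndufc1. Both drug groups are compared with the same 3 controls, so these counts are not independent of each other.

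Doxycycline and tetracycline share a fused-ring scaffold and differ in the position of a hydroxyl group, and both were given at 2 mg/mL for 7 days. The drugs were compared directly in the 45 members, with adjustment over all 12100 genes. None was called by limma, where 0.231% of genes were, and 3 had an unadjusted p under 0.05, where 21.7% of genes did: Ndufa6 and Ndufaf4 higher in Dox, and Ndufaf7 lower. DESeq2 called Ndufa6 alone (adjusted p = 0.0267), against 8.78% of genes, and edgeR called 0, against 0% of genes. With the replicate number as a block over Dox and Tc, 0 were called, but so were 0 of the 12100 genes. Without the libraries 3, 0 had an unadjusted limma p under 0.05, against 3.75%, and DESeq2 called 0, against 0.264%.

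The difference between Dox and Tc in Ndufaf4 was 0.55 on the log2 scale (95% interval 0.12 to 0.97, limma adjusted p = 0.166). Ndufaf4 had 290, 222 and 234 normalized counts in Tc, all above the controls and all below the Dox livers. The difference in Ndufa6 was 0.36 (0.12 to 0.60, limma adjusted p = 0.14), and that in Ndufaf7 was -0.48 (-0.93 to -0.02, limma adjusted p = 0.22). In Ndufb7 (distal arm) all Dox livers were below all Tc livers, and in Ndufa7 (N module) all were above. Groups that did not overlap were 3 higher and 2 lower in Dox among the members, where 12.2% and 12.4% of all genes were.

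For all 7 core subunits, the interval of the difference included 0. It ran from -0.41 to 0.31 for Ndufs7, from -0.36 to 0.32 for Ndufv2 and from -0.21 to 0.42 for Ndufv1. Differences beyond those bounds were thus outside the intervals, but smaller ones in either direction were not. Wider intervals were found for genes that differed over 2-fold between Dox 1 and Dox 2, from -1.48 to 0.33 for Ndufaf1, from -1.17 to 0.07 for Ndufs8, from -1.28 to 0.32 for Ndufaf5 and from -1.16 to 0.27 for Ndufaf3. Without Dox replicate 1, limma called 4 members between the drugs, with Ndufaf1, Ndufaf7 and Ndufs8 lower and Ndufaf4 higher in Dox, where 20.9% of all genes were then called.

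Other genes of the same machinery were set beside the members. Of 42 nuclear subunits of complexes II to V, 38 had a log2 fold change above 0 in Dox, with a median of 0.32 (also 0.32 without the libraries 3), and 39 in Tc, with a median of 0.26. In Dox, 3 rose by limma: Uqcr10 of complex III (0.74 ± 0.13, adjusted p = 0.0158), and Cox6b1 (0.65 ± 0.14, adjusted p = 0.0296) and Cox8a (0.60 ± 0.15, adjusted p = 0.0426) of complex IV. Limma called 3.16% of all genes higher in Dox. Uqcr10 had 410, 393 and 417 normalized counts in controls and 666, 706 and 666 in Dox. Relative to the control mean, their median was 0.50 in Dox 1 and 0.20 in Dox 2, and that of the 36 complex I subunits was 0.41 and -0.16. No test of the difference between these lists and the members was run. DESeq2 called 11 of the 42 higher in Dox, where it called 8.77% of all genes higher. In Tc it called 3 (Atp5a1, Cox6b1 and Cox6b2), where it called 2.86% of genes. Without the libraries 3 it called 0 in either, where it called 1.2% of genes in Dox and 0.0744% in Tc. With the replicate block Cox8a lost its call (limma adjusted p = 0.0516).

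The mitochondrial genome encodes the remaining core subunits. Of 7 such genes, 5 had a mean of at least 10, with a median log2 fold change of 1.07 in Dox and 0.37 in Tc (1.24 and 0.75 without the libraries 3) and 0 called by limma (4 in Dox at an unadjusted p under 0.05). The highest, mt-Nd2, had 11054, 7378 and 12323 normalized counts in controls and 26048, 19617 and 21931 in Dox (1.16 ± 0.32, limma adjusted p = 0.0594). In Dox 2, mt-Nd2 was thus above all controls while 26 of the 45 nuclear members lay below theirs. DESeq2 called mt-Nd1, mt-Nd2, mt-Nd4 and mt-Nd5 in Dox, and without the libraries 3 mt-Nd2, mt-Nd4 and mt-Nd5 (adjusted p = 0.0323, 0.017 and 0.0179). Of all genes, DESeq2 called 8.77% higher in Dox, and 1.2% in either direction without the libraries 3. At an unadjusted limma p under 0.05, 13.6% of genes were higher. The lowest change was that of mt-Nd6, at 0.24 ± 0.30 (limma adjusted p = 0.627).

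Of 12 other assembly factors with a mean of at least 10, limma called 1 higher and 1 lower in Dox, where it called 3.16% of all genes higher and 5.26% lower. Ecsit, which works with Ndufaf1, had 186, 234 and 198 normalized counts in controls, 360, 281 and 363 in Dox, and 360, 283 and 316 in Tc. It rose in Dox by 0.69 ± 0.16 on the log2 scale (limma adjusted p = 0.0361), whereas Ndufaf1 itself was at -0.53. Nubpl, which delivers iron-sulfur clusters, fell in Dox from 132, 109 and 116 to 75.8, 65.6 and 82.7, a log2 fold change of -0.67 ± 0.17 (limma adjusted p = 0.0443). Both calls were lost without the libraries 3 (DESeq2 adjusted p = 0.574 and 0.452) and with the replicate block (limma adjusted p = 0.0647 and 0.0504). In Tc, limma called none of the 12, where it called 0.182% of genes. DESeq2 called Ecsit in Tc (0.63, adjusted p = 0.0382), where it called 2.86% of genes.

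**Figure D5:**
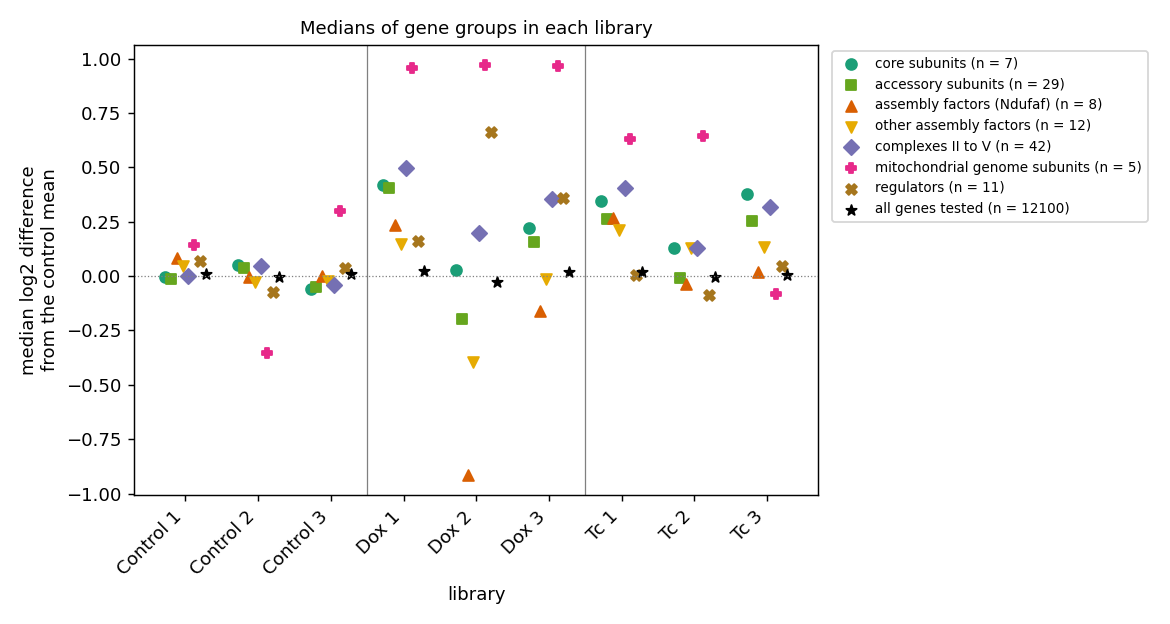
Median over each gene group of the log2 difference from the control mean (y axis), in each of the 9 libraries (x axis). Dox 2 is the library in which the groups spread most, from -0.91 for the Ndufaf assembly factors to 0.97 for the mitochondrial genome subunits, while the median of all genes tested stays within 0.03 of 0.

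Among 11 regulators of nuclear respiratory genes, limma called 2 higher in Dox, both coactivators of the PGC-1 family, and 1 lower. It called 3.16% of all genes higher and 5.26% lower. Ppargc1b changed by 1.48 ± 0.31 and Pprc1 by 1.19 ± 0.31 (limma adjusted p = 0.0272 and 0.0492). Tfam, which packages and transcribes mitochondrial DNA, fell in Dox by 0.63 ± 0.15 on the log2 scale (limma adjusted p = 0.0369). In Tc its log2 fold change was -0.59 ± 0.15, with all 3 livers below all controls (limma adjusted p = 0.185, DESeq2 adjusted p = 0.0235). Ppargc1b had 166, 127 and 156 normalized counts in controls and 280, 640 and 409 in Dox. Ppargc1a had 204, 82.3 and 135 in controls and 109, 1463 and 604 in Dox (limma adjusted p = 0.176, DESeq2 adjusted p = 0.00732). The second Dox liver, in which 26 of the 45 members lay below the control range, was the highest of the 9 in both coactivators. Nrf1 was also highest there, at 247, against 96.3 to 113 in controls and 99.0 in Dox 1. In Dox 2, 9 of the 11 regulators lay above the control mean. Tfam and Yy1 lay below it, and Yy1 was the lowest of the 9 libraries there, at 636. With the replicate block, limma called none of Ppargc1b, Pprc1 and Tfam (adjusted p from 0.0561 to 0.0883). Without the libraries 3, DESeq2 did not call them either (adjusted p from 0.131 to 0.568).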

How the data were processed

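Liver RNA libraries of 3 groups (n = 3 each) were analysed from 1 table. The authors trimmed reads (cutadapt), mapped them to mm10 with STAR, kept unique alignments, counted these on genes (HTSeq 2.0.5) and scaled the counts with DESeq2 1.42.0. What was deposited is thus a signal, a count scaled per library, and whether counting used strand is not given in the sources used here. Dividing by what 1 read was worth in a library gave whole reads for 100% of values (tolerance 0.01), so reads were recovered. Symbols were found for 32158 of 32285 identifiers.

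Values were tested as log2(normalized count + 1) with limma 3.58.1 (trend, 1 model for 9 libraries, R 4.3.3), and p-values were adjusted by Benjamini-Hochberg. The 12100 genes tested averaged 10 or more. A gene was called at an adjusted p under 0.05. DESeq2 1.42.0 and edgeR 4.0.16 (quasi-likelihood) on recovered reads were alternatives; of all genes, DESeq2 called 1061 higher and 1111 lower in Dox, and edgeR 1098. Fits were run on simulated counts with independent libraries and the same spread in all groups. The data here differ in both, so that run does not bear on the calls given. Labels do not say what the replicate numbers mark. Same-numbered Dox and Tc livers deviated together (r over 0.1 for all 3 numbers), whereas controls did not (from -0.0807 to 0.055), so a replicate block was added. P-values measure the spread between livers within groups, pooled over all 3 groups, so the spread within Dox also enters Tc against Control. Counting error weighs most for members with few reads (Ndufs5, Ndufaf5 and Ndufaf2). Array weights, other scalings, pseudocounts, filters and libraries left out were also tried.

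Levels per kb used the principal transcript (GENCODE vM21, GRCm38; the authors used another release), and promoters came from RefSeq. One member is counted but not reported here by name. Genes with values are core subunits, the assembly factors, called members, and the 5 highest and 5 lowest per comparison. Of the other pathway lists they are the genes limma called in Dox or, where none was called, the most and least changed. Marker genes that limma called in Dox are named. Chosen after their values were seen were others without overlap, Ppargc1a, Nrf1, Yy1 and Alas2. The members and lists were chosen with earlier results of these data known.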

Additional observations from a re-analysis of the deposited data

How the results depend on the processing

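Counts of members called were the results that moved. In Dox against Control, the 1 member called (Ndufaf4) became 0 with a fold change over 2 also required and with the fit of only the 2 groups. It also became 0 with the replicate block, and without the libraries 3 by limma and by DESeq2. Of the 12100 genes, 138 were called higher and 467 lower with that fold limit, and 80 and 327 with only the 2 groups. The replicate block called 6.41% of genes. Without the libraries 3, limma called 0 genes and DESeq2 1.2%. The count of members moved in other settings too. It became 6 at an unadjusted p (13.6% of all genes were higher and 15.4% lower) and 3 by DESeq2 (8.77% and 9.18%). It became 4 with the same total per library, where 617 of the 12100 genes were called higher and 436 lower, and 28 with array weights. Leaving out 1 library gave 0 to 5 members. In Tc against Control, 0 became 2 at an unadjusted p, 1 by DESeq2 and 17 with array weights (0 to 1 when 1 library was left out). It became 1 with only the 2 groups, where 382 genes were called higher and 345 lower. In Dox against Tc, 0 became 3 at an unadjusted p, 1 by DESeq2 and 19 with array weights (0 to 4 when 1 library was left out). The replicate block over all groups left it at 0, where 0 of the 12100 genes were called higher and 2 lower. A block over Dox and Tc alone, added after seeing the data, also left it at 0, where 0 of all genes were called. Over all genes, array weights called 4101 higher and 3838 lower in Dox, 1735 and 1787 in Tc, and 3672 and 3863 in Dox against Tc. Array weights gave Dox 3 a weight of 21200 and did not converge, so those counts are not a check.

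The limma call of Ndufaf4 in Dox was lost without Control replicate 1, 2 or 3 (limma adjusted p = 0.0852, 0.0923 and 0.0785), Dox replicate 3 (0.0929) or Tc replicate 3 (0.0533). It held without the other 4 libraries, and the log2 fold change was 0.75 to 1.06 over all 9 such fits. Calls over all genes fell as well, from 382 higher and 636 lower with no library left out. They were 58 and 218, 32 and 109, and 8 and 26 without Control replicates 1, 2 and 3. Without Dox replicate 3 they were 20 and 71, and without Tc replicate 3, 110 and 312. Without Dox replicate 2, 5 members were called higher (Ndufa6, Ndufa10, Ndufaf4, Ndufb5 and Ndufs7), where 18.3% of all genes were called, and without Dox replicate 1, Ndufaf4 higher and Ndufaf1 lower, where 23.6% were.

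Median log2 fold changes of the members moved by less than the spread between livers. With 1 library left out they ran from 0.00 to 0.30 in Dox, from 0.12 to 0.27 in Tc and from -0.28 to 0.07 for Dox against Tc, where the sign turned without Dox replicate 2 (0.07) and with the same total per library (0.06). That scaling moves the median of all genes from 0.00 to 0.17 in Dox and from -0.02 to 0.16 in Dox against Tc. It turns the calls over all genes in Dox from 382 higher and 636 lower to 617 and 436. The median of the members in Dox was then 0.30, against 0.17 over all genes. Over the named genes, 1491 values were the same, 45 moved, 54 became called and 9, all of Ndufaf4, lost the call. These counts include the fit with array weights, which is not a check, and part of the 54 came from it. The replicate block changed no other call among the members.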
